A study of Mus musculus with 2 samples.

Results

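The genes described here are the kinesins, tubulins and spindle regulators of the mouse testis. They were chosen by symbol alone, as the genes named Kif with a number, Tuba, Tubb or Tubg, Aurk, Bub, Plk, Cenp, Mad2l, Stmn, Incenp or Birc5 that had a probe set annotated to exactly 1 gene symbol. The rule took 57 of the 8251 genes measured, read by 80 probe sets, and each gene was represented by its brightest probe set. RNA came from testes of day 10 homozygous mutant (Mili-/-) mice and of day 10 heterozygous (Mili+/-) mice, so both groups carried at least 1 mutant copy of Mili. That gene, also called Piwil2, encodes a Piwi protein that binds small RNAs in germ cells. One array per genotype was hybridised with polyadenylated RNA, no label says how many mice stand behind an array, and neither the strain nor the kind of mutation is given in the sources used here. According to the labels, germ cells of the mutant stop early in meiotic prophase and the first dying cells are seen a day after the age sampled.

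Microtubules are polymers of alpha and beta tubulin that grow from rings of gamma-tubulin. In a dividing cell they form the spindle, which kinesin motors build and slide, Aurora and Polo-like kinases switch on, and centromere proteins connect to chromosomes, while the spindle checkpoint delays division until all chromosomes are attached. Other kinesins carry vesicles or build cilia, and stathmins bind free tubulin. In the testis at this age, spermatogonia and Sertoli cells divide, the first germ cells enter meiosis, and Sertoli cells hold large microtubule arrays along their length.

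With a single array behind each genotype no replicate test can be made, no p-value is given, and every difference describes these 2 arrays. Differences are log2 values of Mili-/- minus Mili+/- after each array was centred on its median, which removed a shift of 0.11. A gene was compared only if at least 1 of its signals reached the median of that array (41.55 in Mili-/-, 38.5 in Mili+/-), here called passing the brightness filter. Among the 5095 genes that passed, the median difference was -0.13 and the central 95% lay between -0.69 and 0.58. Probe sets that read the same gene disagreed with an SD of 0.31 over 720 genes, and this is the one error at hand, which leaves out animals and hybridisations. Of the members, 43 passed, 42 of them on both arrays, and Kif16b passed through the Mili+/- array alone. No probe set was annotated to Piwil2 alone, so the genotype was not checked against its transcript.

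As a whole, the members did not stand away from the other genes. Their median difference was -0.13 over the 43 that passed, the same to 2 decimals as the median of all genes, and 20 members lay above and 23 below that value. At a threshold of 1.5-fold, 1 member was higher in the Mili-/- array (2.33% of the 43) against 2.47% of all genes, and 1 was lower (2.33%) against 5.04% of all genes. The higher one was Tubb4a and the lower one Kif3a. None of the 43 members past the filter reached 2-fold in either direction, a size passed by 0.314% of all genes upward and 0.53% downward. At a log2 difference of 0.32 or more, 3 members were higher and 6 lower, where 7.28% of all genes were higher and 22.3% lower. Of the 43 members, 41 lay within the central 95% of all genes. The split of calls over all genes depended on scaling, with 126 higher and 257 lower after centring, 197 and 124 in the deposited values, 182 and 146 in quantile-normalized values and 184 and 138 in loess-adjusted values, while the members stayed at 1 and 1, the same genes, under all 4.

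**Figure D1:**
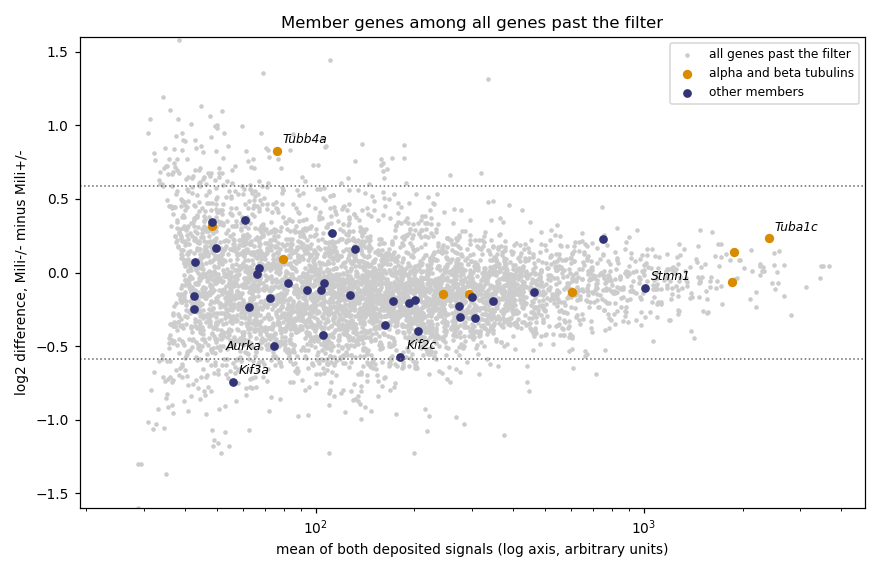
Log2 difference (Mili-/- minus Mili+/-) against the mean of both deposited signals on a log axis, 1 point per gene past the brightness filter, with tubulins in orange, other members in blue and all other genes in grey. Dotted lines mark 1.5-fold; the members lie inside the cloud of all genes, and Tubb4a at 0.83 and Kif3a at -0.74 are the ones past the lines. The vertical axis ends at 1.6 on either side.

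Within this range the roles differed in where they lay. The median was 0.09 for the 9 alpha and beta tubulins that passed and 0.13 for the 2 stathmins, above the -0.13 of all genes. It was -0.24 for the 4 transport and ciliary kinesins, -0.22 for the 4 spindle checkpoint genes, -0.19 for the 7 mitotic kinesins, -0.18 for both the 4 genes of the gamma-tubulin complex and the 5 kinases, -0.16 for the 5 centromere genes and -0.12 for the 3 genes of the chromosomal passenger complex. These medians rest on 2 to 9 genes each, and neither the roles nor their distance from all genes was tested.

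**Figure D2:**
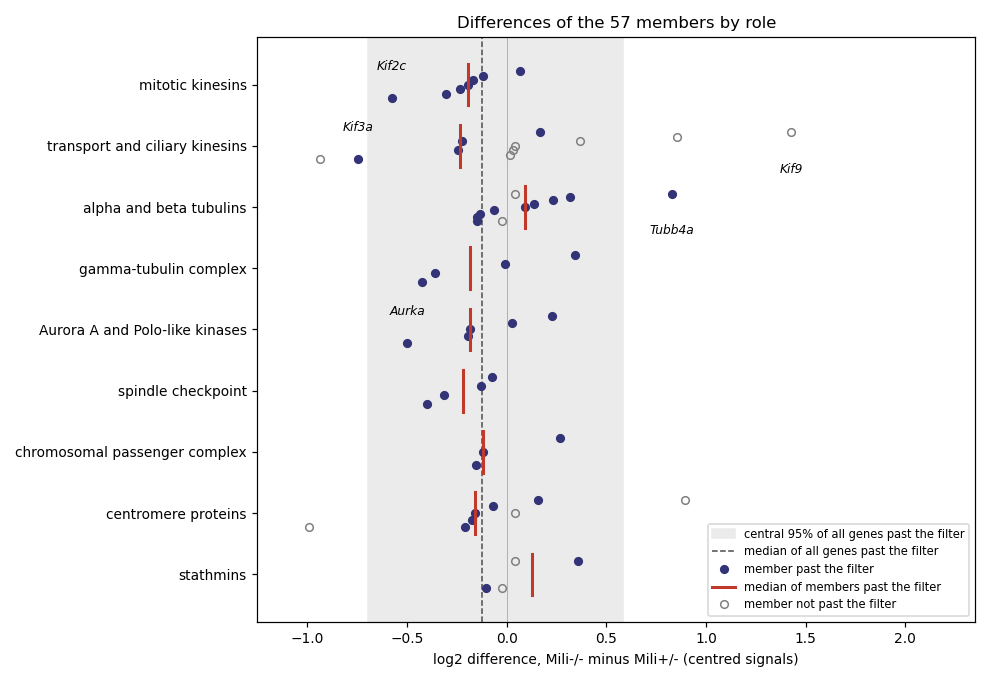
Log2 difference (Mili-/- minus Mili+/-) of each of the 57 members, in rows by role. Filled points passed the brightness filter, open points did not, red bars are medians of the filled points, the dashed line is the median of all genes (-0.13) and the grey band their central 95%. Tubulins and stathmins centre to the right of the dashed line and most other roles at or left of it.

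Because the members share this shift with all genes, signs near 0 depend on the scaling. After centring, 13 of the 43 members lay above 0 (30.2%) and 30 below (69.8%), where 31.1% of all genes lay above 0 and 68.9% below, while the deposited, the quantile-normalized and the loess-adjusted values each put 18 above 0 and 25 below. The median of the passenger complex was -0.12 after centring and -0.01 as deposited but 0.01 after quantile normalization and 0.01 after loess. The other 8 roles kept the sign of their median under these 4 scalings. For the tubulins it ranged from 0.09 to 0.20 and for the mitotic kinesins from -0.19 to -0.06. Among single genes, Tubb4a stood between 0.83 and 0.94 and Kif3a between -0.74 and -0.63 under the 4 scalings, Kif2c between -0.57 and -0.42 and Aurka between -0.50 and -0.39.

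**Figure D3:**
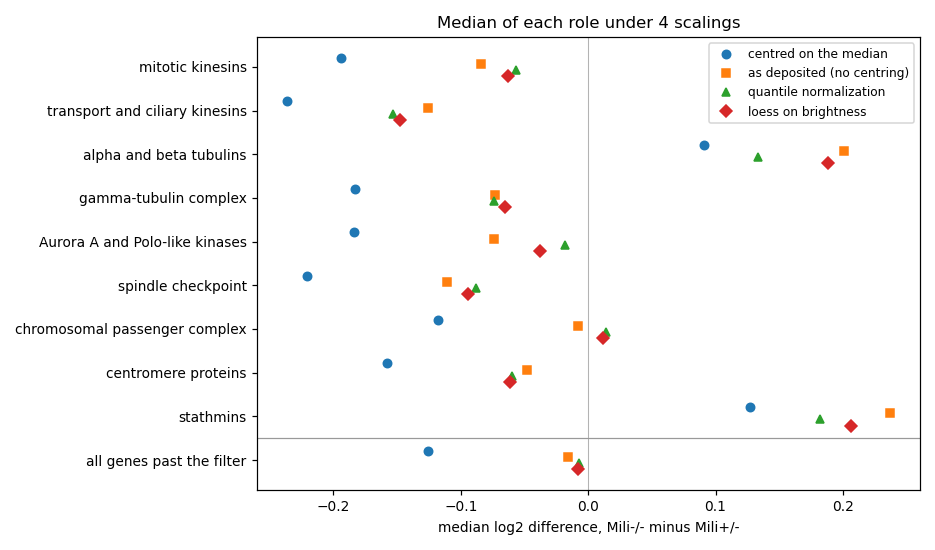
Median log2 difference (Mili-/- minus Mili+/-) of the members past the filter in each role, and of all genes past the filter, under 4 scalings shown by 4 symbols. Centring places every median about 0.11 lower than the deposited values, and tubulins and stathmins stay above 0 and above all genes under each scaling.

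The mitotic kinesins form spindles and divide cells. Kif2c, a motor-like protein that takes microtubules apart at the centromere, had signals of 152 in Mili-/- and 210 in Mili+/-, a difference of -0.57 and 1.49-fold lower, just inside the 1.5-fold threshold. Kif23, a subunit of the centralspindlin complex that bundles microtubules between separating chromosomes, had 257.5 in Mili-/- and 294 in Mili+/- (-0.30). Both were lower on the Mili-/- array, Kif23 by less than the SD between probe sets. Kif2a, a depolymerase related to Kif2c, had 59.9 in Mili-/- and 65.2 in Mili+/- (-0.23). Kif22, a motor that binds chromosome arms, had 336 in Mili-/- and 356 in Mili+/- (-0.19), read by a probe set with relaxed probe selection. Kif4, a chromosome-bound motor that also acts at the spindle midzone, had 93.5 in Mili-/- and 94.1 in Mili+/- (-0.12). These 3 differences lay closer to the median of all genes than the SD between probe sets. Kif11, the motor that pushes spindle poles apart, was the one mitotic kinesin above 0, at 45.4 in Mili-/- and 40.1 in Mili+/- (0.07). For Kif20a, a motor needed for cytokinesis, the brightest probe set, of a shared-sequence type, read 293 in Mili-/- and 305 in Mili+/- (-0.17). Its other probe set, without such a suffix, read 92.8 in Mili-/- and 144 in Mili+/- (-0.74), so the 2 readings of Kif20a lay on either side of the 1.5-fold threshold. The labels give no way to choose between them.

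Many genes that peak in dividing cells carry in their promoter the cell cycle genes homology region (CHR), the letters TTTGAA or TTCGAA, often with CCAAT boxes upstream. Promoter windows from RefSeq (GRCm38.p6), from 250 bases before to 50 after a gene's start, were found for 46 of the 57 members, in 54 windows. Either CHR form, on either strand, was in 5 of the 7 windows of mitotic kinesins (71.4%), 3 of 5 of checkpoint genes (60%), 2 of 5 of the kinases (40%), 2 of 11 of centromere genes (18.2%), 1 of 9 of tubulins (11.1%) and 1 of 12 of transport and ciliary kinesins (8.33%). It was in none of the 3 windows of the gamma-tubulin complex, nor in the 1 window each of the passenger complex and the stathmins. In all, 14 of the 54 member windows (25.9%) held it, against 19.2% of all 32851 windows. Some genes have several windows. Counted by gene, a CHR was in 13 of the 46 members (28.3%), against 21.7% of all 27025 genes with a window. By gene it was in 5 of 6 mitotic kinesins, 2 of 4 checkpoint genes, 2 of 8 centromere genes and 1 of 9 transport and ciliary kinesins. CCAAT, on either strand, was in 27 of the 54 member windows (50%) against 37.4% of all. Past the filter, the 11 members with a CHR had a median difference of -0.19 and a range of -0.57 to 0.32, and the 24 without had -0.07 and -0.74 to 0.83, so the ranges overlapped. Kif11 (0.07) and Tubb4b (0.32) hold a CHR and lay above 0, while Tubgcp3 (-0.43) and Mad2l1 (-0.31) hold none and lay below 0. Kif22, Plk1, Cenpa, Bub3 and Kif4 also hold a CHR and lay below 0, and their windows are not printed. Printed next are the windows of the 4 members with a CHR that had the lowest differences, picked by value. In these windows CHR and CCAAT letters of either strand are in capitals and do not overlap each other. Those of Kif2c (chr4:117178723-117179022, minus strand), Aurka (chr2:172370521-172370820, minus strand), Bub1 (chr2:127831810-127832109, minus strand) and Kif23 (chr9:61946750-61947049, minus strand) read 5′ to 3′ as follows.
Kif2c: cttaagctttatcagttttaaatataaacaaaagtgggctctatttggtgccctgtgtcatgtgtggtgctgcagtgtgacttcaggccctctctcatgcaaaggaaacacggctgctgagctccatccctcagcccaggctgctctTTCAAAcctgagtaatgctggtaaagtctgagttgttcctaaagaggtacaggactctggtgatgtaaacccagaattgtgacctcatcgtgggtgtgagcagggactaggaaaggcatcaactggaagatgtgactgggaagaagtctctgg
Aurka: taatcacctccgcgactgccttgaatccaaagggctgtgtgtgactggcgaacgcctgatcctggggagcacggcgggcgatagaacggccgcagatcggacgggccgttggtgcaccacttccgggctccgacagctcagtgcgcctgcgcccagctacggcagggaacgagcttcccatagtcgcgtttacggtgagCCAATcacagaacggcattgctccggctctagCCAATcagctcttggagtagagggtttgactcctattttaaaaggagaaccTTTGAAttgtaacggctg
Bub1: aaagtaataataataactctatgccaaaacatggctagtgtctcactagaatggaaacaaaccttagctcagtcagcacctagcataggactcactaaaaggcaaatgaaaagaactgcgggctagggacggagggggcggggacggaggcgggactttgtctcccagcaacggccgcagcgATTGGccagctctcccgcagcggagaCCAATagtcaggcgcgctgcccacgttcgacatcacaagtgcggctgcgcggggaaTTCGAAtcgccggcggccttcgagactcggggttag
Kif23: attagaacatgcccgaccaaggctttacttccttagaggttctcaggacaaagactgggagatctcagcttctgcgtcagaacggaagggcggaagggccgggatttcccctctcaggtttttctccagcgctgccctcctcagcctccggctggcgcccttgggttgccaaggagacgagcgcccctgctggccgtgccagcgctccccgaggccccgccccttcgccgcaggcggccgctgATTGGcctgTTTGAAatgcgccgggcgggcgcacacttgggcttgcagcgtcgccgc
In Kif23, Bub1 and Aurka the CHR lies after the annotated start, 2, 14 and 32 bases on, with CCAAT before the start. In Kif2c a CHR in the reverse orientation lies 103 bases before the start, and the window holds no CCAAT. A match of letters describes the window, and the difference between members with and without a CHR was not tested.

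Among the kinases, Aurka, which encodes Aurora A of the centrosome and spindle poles, had 64.8 in Mili-/- and 84.8 in Mili+/- (-0.50, 1.41-fold lower). Plk1, the Polo-like kinase of mitotic entry, was read by 3 probe sets past the filter that did not share a direction. The brightest read 167.5 in Mili-/- and 177.5 in Mili+/- (-0.19), another 78.3 in Mili-/- and 135 in Mili+/- (-0.89), and the last 107 in Mili-/- and 85.8 in Mili+/- (0.20). All 3 carry suffixes for shared sequence, so the direction of Plk1 is uncertain. Its brightest probe set still stands for it in the counts and medians. That value (-0.19) is also the median of the 11 members with a CHR. Plk4, which starts the copying of centrioles, had 196 in Mili-/- and 206.5 in Mili+/- (-0.18). Plk2 and Plk3 are kinases of the same family that respond to growth signals and stress. Plk2 had 70.5 in Mili-/- and 64.1 in Mili+/- (0.03). Plk3, from a probe set with relaxed probe selection, had 840 in Mili-/- and 664 in Mili+/- (0.23). Aurka was thus the one kinase whose used probe set differed from 0 by more than the SD of 0.31, and it had no second probe set. Measured from the median of all genes (-0.13), Plk3 also lay more than that SD away, on the higher side.

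Of the 4 spindle checkpoint genes, 3 lay below the median of all genes and 1 above it. Bub1, the checkpoint kinase at the kinetochore, had 184.5 in Mili-/- and 225 in Mili+/- (-0.40), and its other 2 probe sets were dim on both arrays. One of these read the opposite way, at 15.3 in Mili-/- and 9.7 in Mili+/- (0.55), and the mean over all 3 was 0.06. Mad2l1, which encodes the MAD2 inhibitor of the anaphase-promoting complex, had 283 in Mili-/- and 326 in Mili+/- (-0.31). Both used probe sets were lower on the Mili-/- array, and lay below the median of all genes by less than the SD between probe sets. Bub3, the partner that brings Bub1 to kinetochores, had 458 in Mili-/- and 464 in Mili+/- (-0.13), and Mad2l1bp, which helps to switch the checkpoint off, had 107 in Mili-/- and 104 in Mili+/- (-0.07). Both were close to the median of all genes.

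In the chromosomal passenger complex, which corrects faulty attachments and steers cytokinesis, the kinase gene Aurkb had 103.8 in Mili-/- and 104.4 in Mili+/- (-0.12). The scaffold gene Incenp had 125 in Mili-/- and 129 in Mili+/- (-0.15). The survivin gene Birc5 had 126 in Mili-/- and 97.2 in Mili+/- (0.27, 1.21-fold higher). Aurkb and Incenp lay close to the median of all genes and Birc5, read by 1 probe set, lay above it. None reached 1.5-fold.

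Centromere genes differed little. Cenpa, the centromeric histone variant, had 41.8 in Mili-/- and 43.2 in Mili+/- (-0.16), close to the filter on both arrays. Cenpc1, which links that histone to the outer kinetochore, had 83.4 in Mili-/- and 81.1 in Mili+/- (-0.07). Cenpk, of the inner kinetochore network, had 70.8 in Mili-/- and 73.9 in Mili+/- (-0.17). All 3 lay close to the median of all genes. Cenpv had 185.5 in Mili-/- and 198.5 in Mili+/- (-0.21), and a dim second probe set at 0.48 turned its mean to 0.14. Cenpb, which binds satellite DNA at centromeres, had 144 in Mili-/- and 120 in Mili+/- (0.16) and was the only centromere gene past the filter above 0. Cenpe, Cenpl and Cenpx were dim.

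The gamma-tubulin genes, which seed microtubules at centrosomes, went both ways. Tubg1, the main gamma-tubulin gene, had 149 in Mili-/- and 176.5 in Mili+/- (-0.36, 1.28-fold lower), and its close copy Tubg2 had 55.7 in Mili-/- and 40.7 in Mili+/- (0.34, 1.27-fold higher). The Tubg2 probe set has a suffix for shared sequence. Tubgcp3, a subunit of the gamma-tubulin ring, had 93.6 in Mili-/- and 116.5 in Mili+/- (-0.43, 1.34-fold lower), whereas the ring subunit gene Tubgcp4 had 68.5 in Mili-/- and 63.8 in Mili+/- (-0.01). The difference of Tubgcp3 from the general level of -0.13 was within 1 SD between probe sets.

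The alpha and beta tubulins, the building blocks of microtubules, held the highest of the 43 members past the filter. Tubb4a, a beta tubulin best known from brain, had 99.9 in Mili-/- and 52.1 in Mili+/-, a difference of 0.83 and 1.78-fold higher, and ranked 44 of 5095 genes from the top. It passed the filter on both arrays, its probe set carries no suffix for shared sequence, and no second probe set reads it. Tubb4b, a beta tubulin of many tissues and of cilia, had 55.2 in Mili-/- and 41.1 in Mili+/- (0.32, 1.24-fold higher). Tuba8 had 85.3 in Mili-/- and 74.2 in Mili+/- (0.09). These 3 were the tubulins past the filter whose probe sets have no such suffix, and with such probe sets alone the median of the role was 0.32.

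The other 6 tubulins were read by probe sets of shared sequence or relaxed selection, which near-identical copies can reach, so isotypes are uncertain. Tuba1c had 2685 in Mili-/- and 2118 in Mili+/- (0.23), and Tuba1a had 2046 in Mili-/- and 1724 in Mili+/- (0.14), with a second probe set at 0.09. A further probe set assigned to 4 genes, Tuba1a, Tuba1b, Tuba1c and Gm5620, had 2277 in Mili-/- and 1985 in Mili+/- (0.09). The alpha tubulin probe sets of this family were thus all slightly higher on the Mili-/- array. Among the 146 genes with a mean signal of at least 1000, the median was -0.04 and the central 95% ran from -0.32 to 0.19, and Tuba1c lay above this range. Tubb5, the beta tubulin most used by dividing cells, had 1883 in Mili-/- and 1821 in Mili+/- (-0.06), and a second probe set had 1781 in Mili-/- and 1496 in Mili+/- (0.14). For Tubb3, a beta tubulin typical of neurons, the readings were -0.13 (597 in Mili-/- and 607 in Mili+/-) and 0.14 (323 in Mili-/- and 271 in Mili+/-). Tubb2a had 242 in Mili-/- and 248 in Mili+/- (-0.15), and Tubb6 had 288 in Mili-/- and 296 in Mili+/- (-0.15). For Tubb3 and Tubb5 the sign therefore depended on the probe set. Outside the rule stand 2 probe sets assigned to both Tuba3a and Tuba3b, alpha tubulin genes known from testis, with 1974 in Mili-/- and 1899 in Mili+/- (-0.05) and 1413 in Mili-/- and 1475 in Mili+/- (-0.17).

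**Figure D4:**
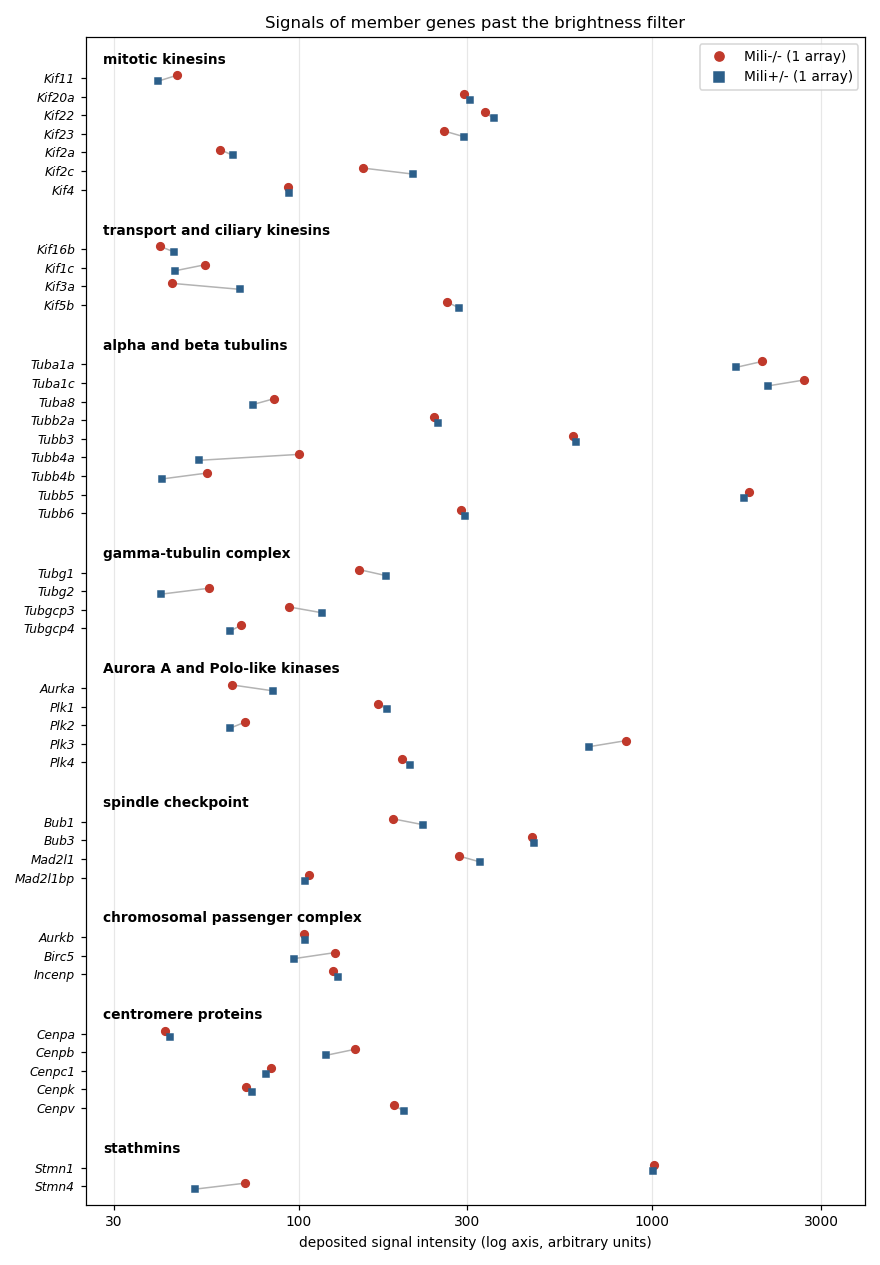
Deposited signal of the 43 members past the brightness filter on a log axis, in rows by role, with the Mili-/- array as red circles and the Mili+/- array as blue squares. A signal can be compared between the arrays within a gene, not between genes; the widest gaps are those of Tubb4a (99.9 in Mili-/-, 52.1 in Mili+/-) and Kif3a (43.9 in Mili-/-, 68.1 in Mili+/-).

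Of the kinesins of transport and cilia, 4 of 11 passed the filter. Kif3a, a subunit of the kinesin-2 motor that builds cilia and flagella, had 43.9 in Mili-/- and 68.1 in Mili+/-, a difference of -0.74 and 1.67-fold lower, the lowest of the 43 members. A second Kif3a probe set, dim on both arrays, read 21.7 in Mili-/- and 9.5 in Mili+/- (1.08), the opposite way, and the mean of both was 0.17. The partner subunit Kif3b was dim too, with 28.9 in Mili-/- and 14.8 in Mili+/-. Kif5b, the conventional kinesin heavy chain of most cells, had 262 in Mili-/- and 284 in Mili+/- (-0.23). Kif16b, an endosome motor, had 40.5 in Mili-/- and 44.5 in Mili+/- (-0.25). Kif1c, a vesicle motor, had 54.3 in Mili-/- and 44.8 in Mili+/- (0.17). None of these 3 differed from 0 by more than the SD between probe sets.

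The promoter windows of the members past 1.5-fold are shown because they lie outside the mitotic set. That of Kif3a (chr11:53567119-53567418, plus strand) holds 1 CCAAT in reverse orientation, in capitals, and that of Tubb4a (chr17:57087551-57087850, minus strand) holds neither motif, so it has no capitals.
Kif3a: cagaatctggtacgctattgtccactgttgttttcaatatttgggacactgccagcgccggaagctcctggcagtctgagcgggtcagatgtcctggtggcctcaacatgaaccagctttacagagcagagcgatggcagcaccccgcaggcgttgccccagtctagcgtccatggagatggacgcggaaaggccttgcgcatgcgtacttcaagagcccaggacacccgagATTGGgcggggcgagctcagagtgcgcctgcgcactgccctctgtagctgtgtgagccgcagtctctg
Tubb4a: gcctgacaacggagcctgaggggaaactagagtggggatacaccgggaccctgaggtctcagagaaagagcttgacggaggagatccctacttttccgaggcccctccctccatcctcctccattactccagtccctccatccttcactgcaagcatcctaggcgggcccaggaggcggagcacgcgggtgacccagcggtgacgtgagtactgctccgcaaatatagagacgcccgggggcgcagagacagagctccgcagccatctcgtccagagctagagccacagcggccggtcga

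Stathmin genes gave a pair of readings past the filter. Stmn1, the stathmin of dividing cells, had 1009 in Mili-/- and 1005 in Mili+/- (-0.10), close to the general level. Stmn4, a stathmin of neurons, had 70.5 in Mili-/- and 51.0 in Mili+/- (0.36, 1.28-fold higher). Stmn2 and Stmn3, also neuronal, did not pass.

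The 14 members that did not pass were Cenpe, Cenpl, Cenpx, Kif1a, Kif1b, Kif3b, Kif3c, Kif5a, Kif5c, Kif9, Stmn2, Stmn3, Tuba4a and the pseudogene Tubb2a-ps2. Their signals reached at most 33.9 in Mili-/- and 31.9 in Mili+/-. On both arrays, 4 of them (Cenpe, Kif1a, Stmn3 and Tubb2a-ps2) were at or under the floor of 7 in Mili-/- and 6.3 in Mili+/-, so their values have no order. The differences of the dim members ran from -0.99 (Cenpx, with a signal of 2.4 in Mili-/-, below the floor, and 12.9 in Mili+/-) to 1.43 (Kif9, a kinesin of motile cilia, with 25.8 in Mili-/- and 8.9 in Mili+/-). Some dim genes had probe sets far apart. Kif1b, a motor of mitochondria and vesicles, stood at -0.93 in one probe set and 0.89 in the other, and Stmn2 at -0.02, 0.58 and 1.37 in its 3.

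**Figure D5:**
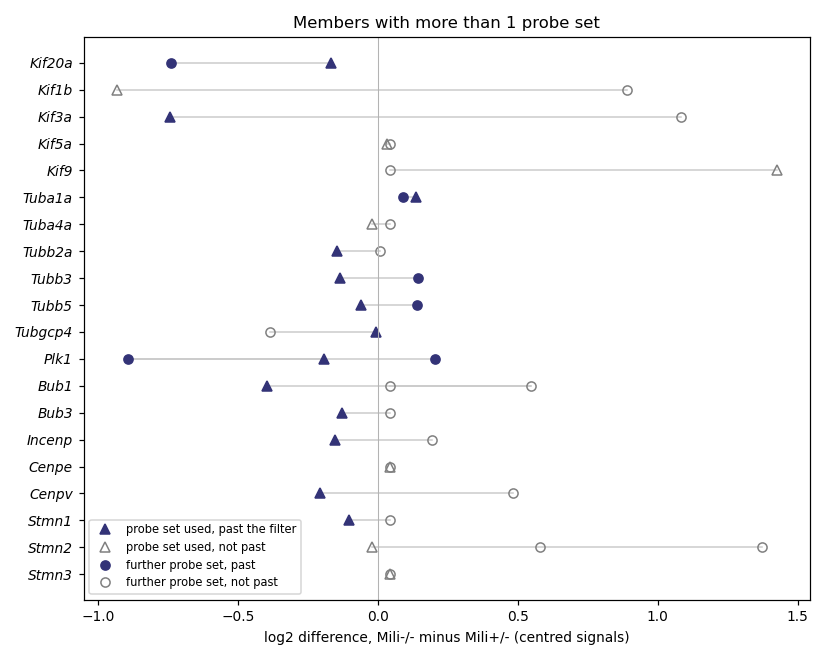
Log2 difference (Mili-/- minus Mili+/-) of every probe set of the 20 members that have more than 1, with triangles for the probe set used and filled symbols for those past the brightness filter. Probe sets at or under the floor on both arrays all stand at 0.04; Kif3a, Kif1b, Plk1, Stmn2 and Kif20a show readings far apart.

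Of the 20 members with several probe sets, only 5 had more than 1 past the filter, namely Kif20a, Plk1, Tuba1a, Tubb3 and Tubb5. The readings shared a sign for Kif20a and Tuba1a and did not for Plk1, Tubb3 and Tubb5. Neither Tubb4a nor Kif3a had a second probe set past the filter, so their differences rest on 1 probe set and 1 array of each genotype.

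Other genes of the same machinery were read from lists drawn up by function. Of 11 further kinetochore and checkpoint genes measured, 7 passed, with a median of -0.07. At 1.5-fold 1 was higher and none lower, where 2.47% of all genes were higher and 5.04% lower. The higher one was Zw10, which recruits dynein to kinetochores, at 52.4 in Mili-/- and 23.5 in Mili+/- (1.05), and it passed through the Mili-/- array alone. The checkpoint kinase gene Ttk (129 in Mili-/- and 143 in Mili+/-, -0.25) and the centrosome kinase gene Nek2 (173 in Mili-/- and 189 in Mili+/-, -0.23) were the next in size. Both kinase genes lay nearer to the median of all genes than the SD between probe sets.

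Spindle assembly and cytokinesis genes had a median of -0.24 over 23 of 31 measured, 17 of them below the median of all genes. At 1.5-fold 1 was higher and 2 were lower, where 2.47% of all genes were higher and 5.04% lower. Tacc3, which stabilises spindle microtubules, had 32.1 in Mili-/- and 65.6 in Mili+/- (-1.14) and passed through the Mili+/- array alone. Nusap1, a microtubule bundler of the spindle, had 168 in Mili-/- and 237 in Mili+/- (-0.61), while the end-binding gene Mapre3 had 53.1 in Mili-/- and 31.2 in Mili+/- (0.66) and passed through the Mili-/- array alone. Anaphase and cohesion genes had a median of -0.15 over 16 of 17 measured, with 1 higher and 1 lower. Stag2, a cohesin subunit gene, had 235 in Mili-/- and 143 in Mili+/- (0.61). Ube2c, the ubiquitin enzyme of the anaphase-promoting complex, had 28.5 in Mili-/- and 39.7 in Mili+/- (-0.59) and passed through the Mili+/- array alone. The cohesin gene Smc3 had 146 in Mili-/- and 192 in Mili+/- (-0.50).

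Few partners of tubulin and of the motors passed 1.5-fold, where 2.47% of all genes were higher and 5.04% lower. Tubulin folding and modification genes had a median of -0.20 over 16 of 19 measured and none past 1.5-fold, with the severing enzyme gene Spast (56.1 in Mili-/- and 75.5 in Mili+/-, -0.54) and the chaperonin genes Cct6a (179.5 in Mili-/- and 236 in Mili+/-, -0.51) and Cct7 (533 in Mili-/- and 673 in Mili+/-, -0.45) at the low end. Of the 16, 12 lay below the median of all genes, whereas 6 of the 9 tubulins lay above it. Dynein and dynactin genes had a median of -0.08 over 14 of 17, and 1 was past 1.5-fold, the dynactin gene Dctn6 (157 in Mili-/- and 227 in Mili+/-, -0.64). Kinesin light chains and adaptors had a median of -0.27 over 7 of 10, 1 of which passed through the Mili+/- array alone. None was past 1.5-fold, and over the 6 that passed on both arrays their median was -0.15. They include Kifap3, the non-motor subunit of the complex that Kif3a belongs to, with 75.1 in Mili-/- and 86.4 in Mili+/- (-0.31). Microtubule-associated proteins had a median of -0.13 over 11 of 18, or -0.15 over the 10 that passed on both arrays, none past 1.5-fold.

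Cell type markers differed between the arrays as well. Of the 9 germ cell markers measured, 7 passed, all below 0, where 68.9% of all genes lay below 0. Their median was -0.53, or -0.28 over all 9 with no filter. Sall4 passed through the Mili+/- array alone, and the median of the 6 that passed on both arrays was -0.41. The summed signal of the germ cell markers was 2846 in Mili-/- and 3340 in Mili+/-. Of the 9 Sertoli cell markers, all past the filter, 7 lay above 0, where 31.1% of all genes lay above 0. Their median was 0.18, with sums of 6441 in Mili-/- and 5434 in Mili+/-. Markers of dividing cells went both ways, with a median of -0.23 over 6 and sums of 1787 in Mili-/- and 1858 in Mili+/-. Mki67, Pcna and Top2a stood at -0.71, -0.33 and -0.33 and Ccna2 at -0.14, while Cdk1 and Ccnb2 stood at 0.14 each. In RNA from whole testes, fewer cells of a type and less RNA per cell cannot be told apart, and the part of these cell types in the values of the mitotic genes and the tubulins was not tested. Adipocyte markers had sums of 448 in Mili-/- and 245 in Mili+/- and erythroid markers 2032 in Mili-/- and 1500 in Mili+/-. Of the adipocyte markers, 3 of the 5 measured passed through the Mili-/- array alone, as did 2 of the 4 erythroid ones, so that array fixed their direction. The median of the adipocyte markers was 0.90, or 0.54 over the 2 that passed on both arrays, and their part in the Tubb4a and Stmn4 values was not tested either. Neuronal markers, set beside Tubb4a and Stmn4, were dim, with 1 of 10 past the filter, 4 at or under the floor on both arrays, and sums of 124 in Mili-/- and 150 in Mili+/-. Signals this low give no direction, and the part of neurons in these values was not tested. Leydig cell markers had a median of -0.29 over 4 of 5 measured, with sums of 693 in Mili-/- and 774 in Mili+/-. Of these 4, 1 passed through the Mili+/- array alone, and the median of the 3 that passed on both arrays was -0.355.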

How the data were processed

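The deposited table holds 1 linear signal intensity per probe set and array, with probe set names of a 1-colour Affymetrix array. From the values, the authors scaled both arrays alike, since with 2% of probe sets trimmed at either end both had a mean of 100.05. Which tool summarised the probes is not given in the sources used here. Of 12488 probe sets, 66 controls were left out. Platform annotation gave 10833 of the others 1 symbol, 396 several and 1193 none. Of those with 1 symbol, 10817 were matched by Entrez ID to RefSeq (GRCm38.p6) and took its symbol, which changed no member.

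From the deposited intensities, values under an array's 20th percentile were raised to it, log2 was taken and each array's median subtracted. The brightest probe set by mean signal stood for a gene. With 1 array per genotype no test was possible and the number of arrays limits the precision. All 43 members past the filter may be named, and from each list up to 3 genes with the largest difference past the filter. Any other gene or probe set was named after its values were seen: Kif3b, Kif9, Cenpx, Kif1b and Stmn2 among the dim members, Ccna2, Cdk1 and Ccnb2 among the markers, dim second probe sets, and the probe sets with several symbols. The 6 promoters printed were chosen likewise. Members, lists, threshold and roles were chosen with earlier results of these data known. The code was checked on simulated data with known changes of 2-fold or more in brighter genes. That check did not cover 1.5-fold changes or genes as dim as Kif3a and Tubb4a. Alternatives covered scaling, floor, filter, probe set choice, symbols and fold. Python 3.11.15, NumPy 2.4.6, pandas 2.3.3, statsmodels 0.14.6 and matplotlib 3.10.9 were used.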

Additional observations from a re-analysis of the deposited data

How the results depend on the processing

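No paired analysis was possible because each genotype has 1 array, and no replicate could be left out. The count of members at least 1.5-fold higher or lower was 1 and 1, and it stayed so with the values as deposited, quantile normalization, loess, either change of floor, a filter that both arrays must pass, and symbols as annotated. It was 4 higher and 3 lower of 57 with no filter, which takes in dim genes. All genes then gave 6.22% higher and 7.21% lower. The count was 0 and 0 when the filter was raised to the 75th percentile, which leaves 21 members and neither Tubb4a nor Kif3a. Under that filter 0.79% of all genes were higher and 3.59% lower. With the mean over probe sets the count was 1 higher and 0 lower, against 2.18% and 4.38% of all genes. Kif3a then stood at 0.169, on the other side of 0, through its dim second probe set. Bub1 (0.064), Cenpv (0.137), Incenp (0.020), Tubb3 (0.005) and Tubb5 (0.040) also changed sign there. Medians moved up to 0.02 for the passenger complex, -0.06 for the checkpoint, -0.03 for transport and ciliary kinesins and -0.07 for centromere genes. They moved down to -0.23 for mitotic kinesins and -0.28 for the gamma-tubulin complex. Then 24 members lay above the median of all genes and 19 below. Without probe sets of a shared-sequence or relaxed-selection suffix the count was 1 higher and 2 lower of 33, with Kif20a (-0.741) added. All genes then gave 2.05% higher and 4.99% lower. At 2-fold it was 0 and 0, and at a log2 difference of 0.32 it was 3 higher and 6 lower. The median of the members ranged from -0.17 to -0.01 over these settings and that of all genes from -0.13 to -0.01. Under the stricter filter the tubulin median was -0.10, against 0.09, and without the filter the median of transport and ciliary kinesins was 0.03, against -0.24; with no filter the tubulins stood at 0.04. The floor settings bear on dim genes only and moved none of these counts. Low signal over background limits the 14 dim members most.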
